A study of Mus musculus with 12 samples.

Results

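The 38 genes described here belong to the major histocompatibility complex (MHC) class I pathway or are stimulated by interferons. They were taken as a list of symbols, by a rule that uses no expression value, although earlier results of these data were known when it was set, and all 38 were matched to an Ensembl identifier in the count table. The table lists 53715 genes. Of these, 17779 had more than 10 counts in at least 1 library and were tested, and all 38 members were among them. By role, 4 members encode MHC class I chains, 6 supply and load peptides, 6 regulate transcription, 5 sense or respond to RNA, 11 are antiviral effectors and their regulators, 5 are interferon-inducible GTPases, and Cxcl10 encodes a chemokine.

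MHC class I molecules carry a heavy chain and beta-2 microglobulin, and present peptides that the proteasome cuts from cellular proteins and that the TAP transporter moves into the endoplasmic reticulum. Interferons bound to their receptors activate transcription factors, STAT2 and IRF9 among them, that act through interferon-stimulated response elements (ISRE) and gamma-activated sites (GAS) near target genes, while NLRC5 and nuclear factor kappaB act on the promoters of the MHC class I chains. Hepatocytes of a healthy adult liver are known for a low level of surface MHC class I that interferon raises, and MHC class I expression is known to be low in embryonic tissues.

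The study compared hepatoblasts, the bipotent progenitors of the fetal liver, with hepatocytes made from them in culture and with hepatocytes of the adult liver. Hepatoblasts came from livers of C57BL/6JOlaHsd embryos at stage E14.5, were selected with magnetic beads for the surface protein Dlk1, and were lysed directly after isolation. Diff. hepatocytes were such hepatoblasts kept for 4 days on fibronectin in a differentiation medium with serum, dexamethasone and Matrigel. Mature hepatocytes were freshly isolated by collagenase perfusion from adult male mice of the same strain, 8 to 12 weeks old. The descriptions name no transgene, mutation, interferon or virus for any group. The hepatoblasts come from pooled embryos and carry no record of sex, so age, isolation and possibly sex differ together between mature hepatocytes and the others, and culture as well between mature and Diff. hepatocytes. Each group held 4 biological replicates.

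Libraries held 19581551 to 25216977 counts on genes. Levels are given in counts per 1000000 counts (CPM) after TMM scaling, which corrects library sizes for the share taken by a few very abundant genes. Hepatoblast marker Dlk1 averaged 3521 CPM in hepatoblasts, 94.1 after the culture and 4.18 in the adult cells. Adult hepatocyte enzyme Cyp2e1 had 2.82, 3.24 and 6500 CPM in the same order, and the urea cycle enzyme Cps1 had 22, 5917 and 6063. Hepatoblasts replicate 1 stood apart in blood cell markers. Its 11 macrophage markers summed to 423 CPM against 100 to 122 in the other hepatoblast libraries, its 6 granulocyte markers to 435 against 29.2 to 45.7, and its 10 erythroid markers to 3065 against 377 to 621. Where a member's call changes without this library, both values are given.

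A member counted as called when edgeR's quasi-likelihood test gave it an adjusted p (Benjamini-Hochberg) below 0.01 and its log2 fold change passed 1 in either direction. Mature hepatocytes carried higher levels of most of the pathway than hepatoblasts. Of the 38 members, 31 were called higher in mature hepatocytes, or 81.6%, against 20.1% of all tested genes, and 2 were called lower, Irf1 and Cxcl10, against 24.7%. The median log2 fold change of the members was 2.47, and that of all tested genes was -0.15. Diff. hepatocytes showed no such shift from hepatoblasts. There, 5 members were called higher (13.2%, against 14.9% of all tested genes) and 9 lower (23.7%, against 14%), and the medians were 0.04 and -0.01. Against mature hepatocytes, 28 members were called lower in Diff. hepatocytes (73.7%, against 15.6% of all tested genes) and 2 higher, Cxcl10 and Ifit2 (against 20.2%), with a median of -2.06 against 0.09. Counting only members whose 4 libraries all lay beyond all 4 of the other group, mature hepatocytes were above hepatoblasts for 31 members (against 30.1% of all tested genes) and below for 3 (35.9%). Diff. hepatocytes were above hepatoblasts for 11 (28.6%) and below for 10 (28.8%), and above mature hepatocytes for 3 (32.4%) and below for 31 (29.2%). Without hepatoblasts replicate 1, the count of Diff. hepatocytes against hepatoblasts became 9 higher and 7 lower, and that of mature hepatocytes against hepatoblasts 30 higher and 2 lower.

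**Figure D1:**
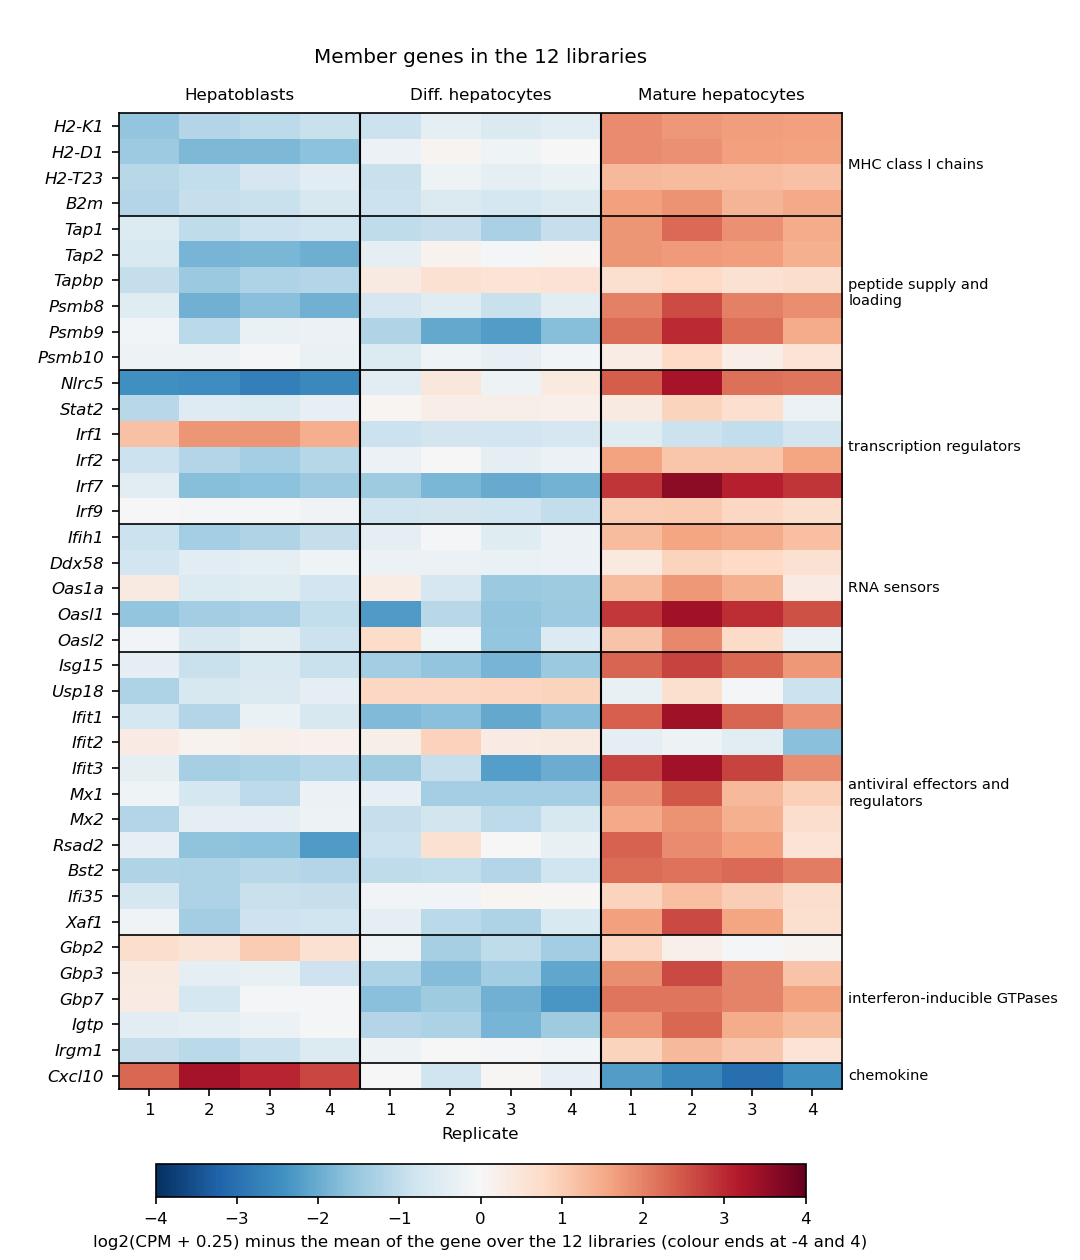
Each row is a member and each column 1 of the 12 libraries. Colour shows log2(CPM + 0.25) minus the mean of the gene over the 12 libraries, and ends at -4 and 4. Red fills most of the mature hepatocyte columns, while Irf1 and Cxcl10 are red in the hepatoblast columns.

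The 3 comparisons share libraries, so their values are given side by side and not as separate evidence. How many of all tested genes have each combination of calls was not counted, so the sets below only describe the members. The largest set, 17 members, was called higher in mature hepatocytes than in both other groups and was not called between Diff. hepatocytes and hepatoblasts. It holds H2-K1, H2-T23, B2m, Tap1, Psmb8, Irf2, Irf7, Ifih1, Oas1a, Oasl1, Ifit3, Mx1, Mx2, Rsad2, Bst2, Xaf1 and Irgm1. A further 6, Psmb9, Isg15, Ifit1, Gbp3, Gbp7 and Igtp, were called higher in mature hepatocytes than in hepatoblasts and lower in Diff. hepatocytes than in either. Against a threshold built into the test (edgeR's glmTreat), 5 of these 6, all but Gbp7, did not pass between Diff. hepatocytes and hepatoblasts. H2-D1, Tap2 and Nlrc5 were called in steps, from hepatoblasts through Diff. hepatocytes to mature hepatocytes. Tapbp was called higher in Diff. and in mature hepatocytes than in hepatoblasts and was not called between them. Usp18 was called higher in Diff. hepatocytes than in hepatoblasts and in no other comparison. Psmb10 was called in no comparison. The mean level was highest in mature hepatocytes for 33 of the 38 members, against 35.2% of all tested genes. It was lowest in hepatoblasts for 18 members (against 32% of all tested genes) and in Diff. hepatocytes for another 18 (against 24.9%). In bulk RNA, fewer cells that express a gene and less of its RNA per cell cannot be told apart.

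**Figure D2:**
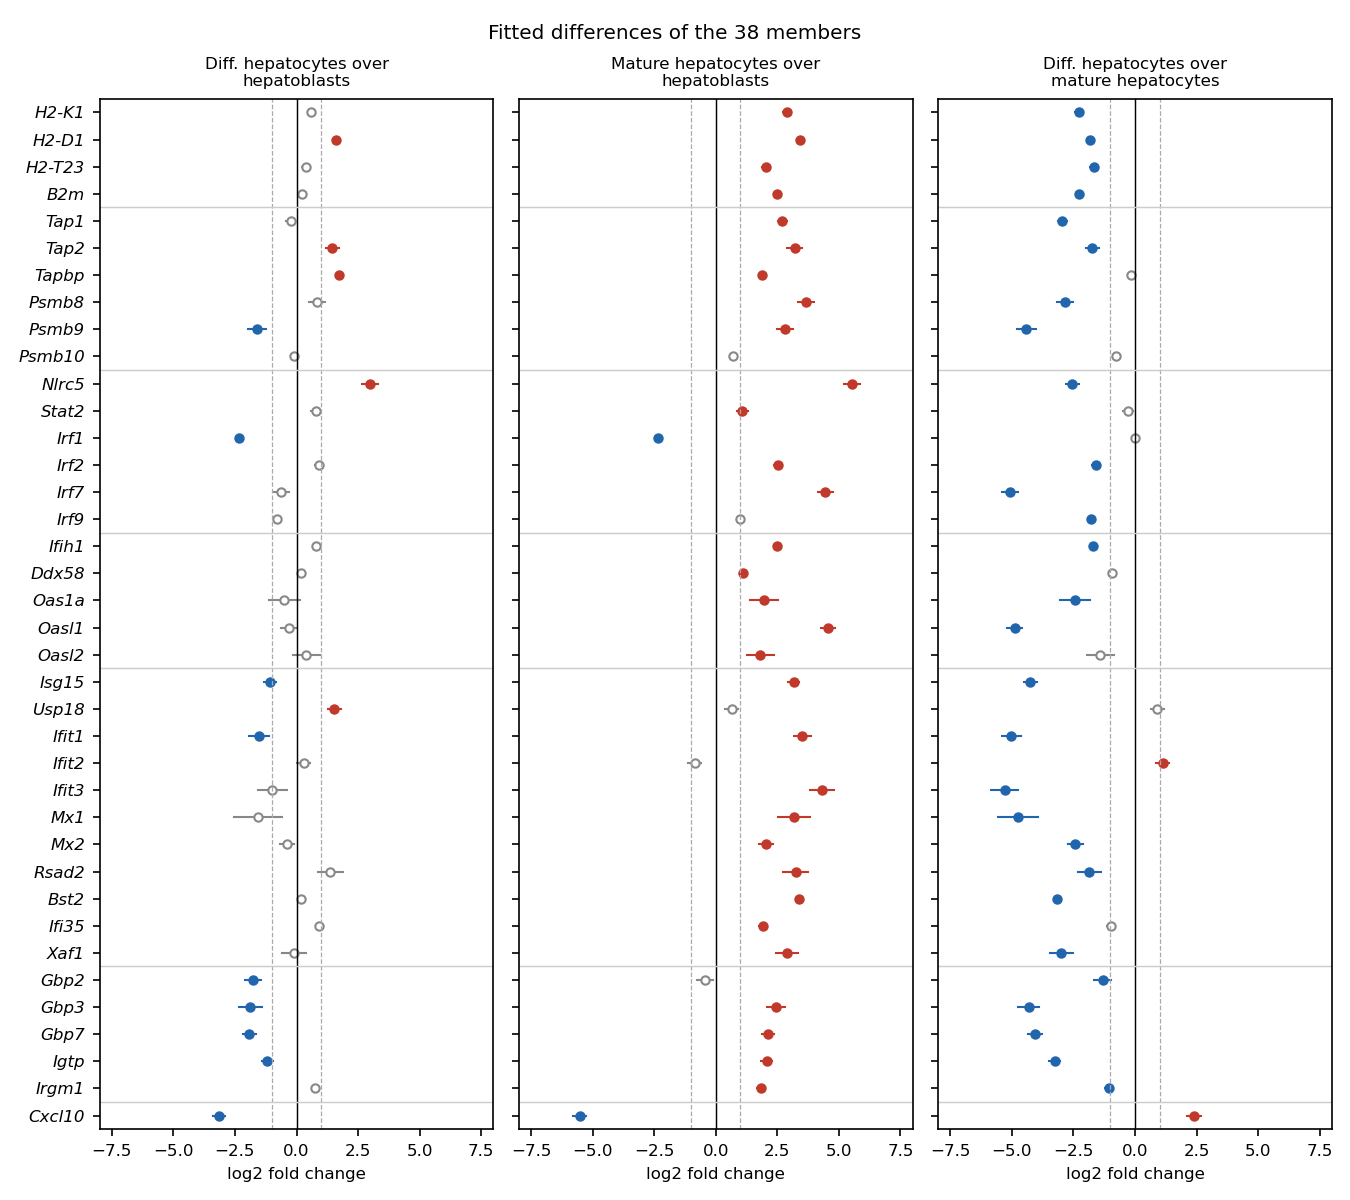
Points show fitted log2 fold changes of the 38 members and bars 1 standard error, in 3 panels for the 3 comparisons, with dashed lines at -1 and 1. Filled red and blue points passed the call as higher and lower in the group named first, and open grey points did not. In the panel of mature hepatocytes over hepatoblasts 31 points are red and 2 blue, and in that of Diff. hepatocytes over hepatoblasts 5 are red and 9 blue.

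Bases before the transcription start are printed below for members on which the results turn, so that the regulatory letters can be read beside the levels. They are RefSeq sequences of build GRCm38.p6, 5′ to 3′ on the strand of the gene, and end at the base before the RefSeq start. Capitals mark matches, on either strand, to an ISRE (GAAA and GAAA with 2 bases of any kind between), a GAS (TTC and GAA with 3 bases of any kind between) or a kappaB site (GGGA, any base, T, any 2 bases, CC), and overlapping matches run together. The search covered 250 bases before and 50 after the start, and 33 of the 38 members had such a window. Tap2, Nlrc5, Usp18, Mx1 and Mx2 were not found in that table. An ISRE match lay in the window of 18 of these 33 members (54.5%), against 3.99% of the 27025 genes in the table. A GAS match lay in 9 (27.3%, against 9.55%) and a kappaB match in 5 (15.2%, against 4.79%). A match describes the letters and is not a measured site of binding.

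Together the MHC class I chains made up 49.9% to 58.1% of the summed CPM of the 38 members in hepatoblasts, 65% to 68.8% in Diff. hepatocytes and 76.5% to 80.1% in mature hepatocytes. All 4 were called higher in mature hepatocytes than in hepatoblasts (against 20.1% of all tested genes) and than in Diff. hepatocytes (against 15.6%). H2-D1 alone of the 4 was called higher in Diff. hepatocytes than in hepatoblasts (against 14.9%). H2-K1 and H2-D1 encode the classical heavy chains of this strain, H2-T23 the nonclassical Qa-1, and B2m the shared light chain.

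H2-K1 (ENSMUSG00000061232, chr17:33996017-34000347, minus strand, GRCm38) had 195, 259, 281 and 318 CPM in the 4 hepatoblast libraries. Diff. hepatocytes had 325, 443, 394 and 435 CPM, and mature hepatocytes 2184, 1947, 1876 and 1814. No groups overlapped, and the mature libraries were far above the rest. The log2 fold change was 2.89 ± 0.16 (standard error, adjusted p = 2.31e-09) for mature hepatocytes over hepatoblasts. For Diff. hepatocytes over hepatoblasts it was 0.60 ± 0.15 (adjusted p = 0.00331), under the size needed for a call.

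H2-D1 (ENSMUSG00000073411, chr17:35262730-35267499, plus strand) had 80.9, 63.9, 64.3 and 71.4 CPM in hepatoblasts, 191, 243, 200 and 224 in Diff. hepatocytes, and 831, 796, 703 and 685 in mature hepatocytes. The 3 groups were separate and ascended in that order. Diff. hepatocytes were above hepatoblasts by 1.61 ± 0.11 on the log2 scale (3.06-fold, adjusted p = 7.77e-08), and below the mature libraries by a log2 fold change of -1.81 ± 0.11 (adjusted p = 1.85e-08). The stepwise order of H2-D1 set it apart in calls from H2-K1, B2m and H2-T23, although whether their fold changes differ from that of H2-D1 was not tested.

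B2m (ENSMUSG00000060802, chr2:122147686-122153083, plus strand) had 189, 224, 233 and 274 CPM in hepatoblasts and 237, 289, 265 and 284 in Diff. hepatocytes, which overlapped (log2 fold change 0.22 ± 0.13, adjusted p = 0.15). Mature hepatocytes had 1340, 1491, 1105 and 1217 CPM, above every other library. H2-T23 had means of 69.4 ± 14.3, 89.8 ± 17.8 and 285 ± 11.3 CPM (SD, n = 4) in hepatoblasts, Diff. hepatocytes and mature hepatocytes. Per kilobase of exon B2m led the members in every group, at 267, 312 and 1498 CPM per kilobase in that order, followed by H2-K1 at 89.5, 136 and 665. The heavy chain genes are near copies of other H2 genes. Of the 75-base stretches of their transcripts, 3.1% of H2-K1, 5.56% of H2-D1 and 5.91% of H2-T23 also occur in another gene, so a part of their reads could not be assigned.

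Promoters of H2-K1, H2-D1 and B2m are shown because each carries a kappaB match. Both classical heavy chains carry the same overlapping pair of kappaB matches, at -111 to -101 from the start in H2-K1 and at -171 to -161 in H2-D1. B2m carries an ISRE match at -139 to -130 before a kappaB match of other letters at -126 to -117. The window of H2-T23, not printed, holds an ISRE match at -124 to -115 and no kappaB match.
H2-K1, chr17:34000348-34000497, minus strand: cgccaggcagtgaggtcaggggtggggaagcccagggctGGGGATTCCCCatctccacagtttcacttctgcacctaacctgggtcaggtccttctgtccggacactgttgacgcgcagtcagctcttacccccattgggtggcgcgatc
H2-D1, chr17:35262894-35263093, plus strand: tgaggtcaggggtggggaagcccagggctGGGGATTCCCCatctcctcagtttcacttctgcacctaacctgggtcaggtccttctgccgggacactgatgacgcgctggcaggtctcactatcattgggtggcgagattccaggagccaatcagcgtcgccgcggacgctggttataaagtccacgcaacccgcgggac
B2m, chr2:122147537-122147686, plus strand: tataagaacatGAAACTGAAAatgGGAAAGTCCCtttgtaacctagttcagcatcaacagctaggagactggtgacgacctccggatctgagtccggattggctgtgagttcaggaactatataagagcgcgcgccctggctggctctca

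**Figure D3:**
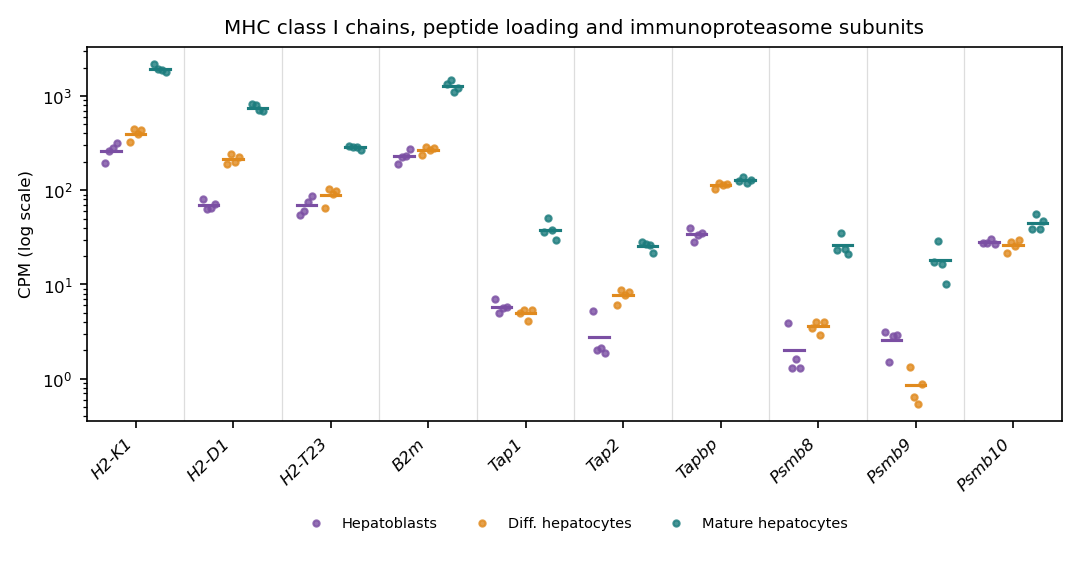
Points are single libraries, 4 per group, and lines the group means, in CPM on a log scale, for the 10 members that form or load MHC class I. The 4 mature hepatocyte libraries of H2-K1 lie between 1814 and 2184 CPM, above all others, and those of Tapbp, at 120 to 138, lie close to the Diff. hepatocyte libraries, at 102 to 119.

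Among the members that supply and load peptides, the transporter and the loading factor differed in their order across groups. Tapbp encodes tapasin, which holds the class I molecule at the transporter until a peptide binds. It had 40.2, 28.2, 33.6 and 35 CPM in hepatoblasts, 102, 119, 114 and 117 in Diff. hepatocytes, and 124, 138, 120 and 127 in mature hepatocytes. Diff. hepatocytes were thus near the mature level, with a log2 fold change of -0.17 ± 0.10 against it (adjusted p = 0.165) and of 1.72 ± 0.11 against hepatoblasts (adjusted p = 2.17e-08). Of the 75-base stretches of Tapbp, 18.6% also occur in other genes, mostly in Gm19412 on the opposite strand.

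Tap1 and Tap2 encode the subunits of the peptide transporter. Tap1 had 7.03, 4.92, 5.57 and 5.83 CPM in hepatoblasts, 5.01, 5.33, 4.08 and 5.32 in Diff. hepatocytes, and 36, 50.3, 37.4 and 29.5 in mature hepatocytes. The cultured and fetal libraries of Tap1 overlapped (log2 fold change -0.24 ± 0.17, adjusted p = 0.239). Tap2 had 5.19, 2.03, 2.1 and 1.89 CPM in hepatoblasts, 6.05, 8.82, 7.64 and 8.33 in Diff. hepatocytes, and 28.2, 26.7, 26.2 and 21.8 in mature hepatocytes. Tap2 was separate in the 3 groups, and higher in Diff. hepatocytes than in hepatoblasts by 1.46 ± 0.28 on the log2 scale (adjusted p = 0.000559), or by 1.95 (adjusted p = 2.31e-07) without hepatoblasts replicate 1, the high library. With glmTreat, Tap2 did not pass in this comparison (adjusted p = 0.0761).

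Psmb8, Psmb9 and Psmb10 encode the catalytic subunits that interferon exchanges for the constitutive Psmb5, Psmb6 and Psmb7 to form the immunoproteasome. Psmb9 had 3.16, 1.49, 2.82 and 2.91 CPM in hepatoblasts, 1.34, 0.645, 0.533 and 0.887 in Diff. hepatocytes, and 17.3, 28.9, 16.6 and 10.1 in mature hepatocytes. It was lowest in Diff. hepatocytes, all of whose libraries were under those of hepatoblasts (log2 fold change -1.60 ± 0.38, adjusted p = 0.00245) and of mature hepatocytes (-4.41 ± 0.38, adjusted p = 3.72e-07). Psmb8 had 3.93, 1.31, 1.62 and 1.29 CPM in hepatoblasts and 3.46, 4, 2.93 and 4.04 in Diff. hepatocytes. Those groups overlapped through hepatoblasts replicate 1 alone, and the log2 fold change was 0.82 ± 0.32 (adjusted p = 0.043) with it and 1.36 (adjusted p = 0.000125) without it. Psmb8 then rose to 23.4, 35.6, 23.7 and 21.2 CPM in mature hepatocytes. Psmb10 had group means of 28 ± 1.58, 26.2 ± 3.49 and 45 ± 8.15 CPM (SD, n = 4), with log2 fold changes under 1 in each comparison.

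The genes Psmb9, Tap1, Psmb8 and Tap2 lie in this order within the MHC, from chr17:34181987-34187764 for Psmb9 to chr17:34203527-34216321 for Tap2. Psmb9 is on the minus strand, starts head to head with Tap1 (chr17:34187553-34197225, plus strand) and overlaps it, and 3.44% of the 75-base stretches of Psmb9 also occur in Tap1. Though neighbours, these genes took 3 courses from hepatoblasts to Diff. hepatocytes: Psmb9 was called lower, Tap2 higher, and Tap1 and Psmb8 were not called.

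Set against their constitutive counterparts, per kilobase of exon, Psmb8 and Psmb9 were the minor partner in every group, with their largest shares in mature hepatocytes. Psmb8 made up 2.18% of the pair with Psmb5 in hepatoblasts (range of the libraries 1.31% to 4.36%), 3.5% in Diff. hepatocytes (2.52% to 4.24%) and 14.9% in mature hepatocytes (11.5% to 20.2%). Psmb9 made up 0.961%, 0.416% and 5.68% of the pair with Psmb6 in the same order. The mature libraries were above all others in both pairs. Psmb10 made up 42.6%, 43.6% and 46.8% of the pair with Psmb7, and its libraries overlapped. These shares depend on the exon lengths, which were taken over all annotated exons of a gene. From counts not divided by length, Psmb8 made up 7.61%, 12% and 39.4% of its pair in the same order of groups. Psmb9 then made up 1.86%, 0.809% and 10.5%, and Psmb10 27%, 27.9% and 30.6%. Of 17 constitutive proteasome and activator genes, 0 were called in any comparison by edgeR's test or by DESeq2. Smaller differences were present, since at an unadjusted p below 0.05 11 were higher and 1 lower in mature hepatocytes than in hepatoblasts, and 2 were higher and 10 lower in Diff. hepatocytes.

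**Figure D4:**
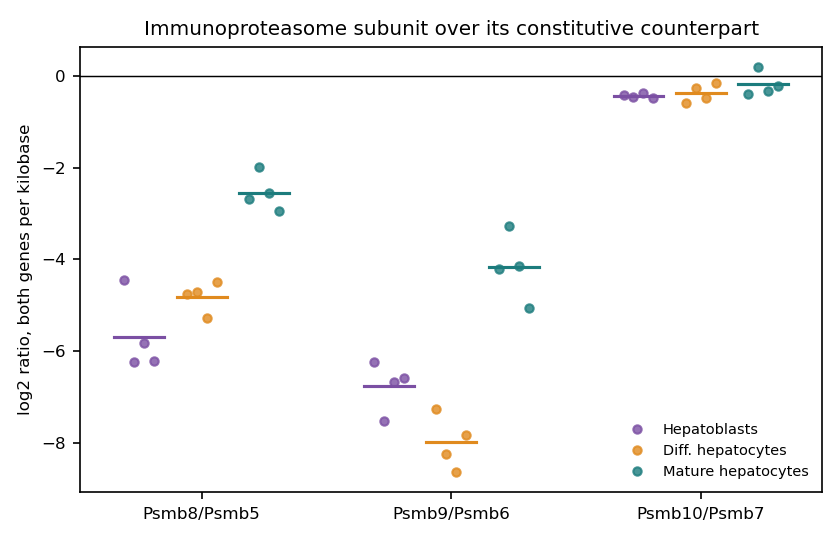
Points are single libraries, 4 per group, and lines the group means, of the log2 ratio of an immunoproteasome subunit over its constitutive counterpart, both per kilobase of exon; 0 marks equal levels. For Psmb8 over Psmb5 the mean moves from -5.68 in hepatoblasts and -4.81 in Diff. hepatocytes to -2.54 in mature hepatocytes, and for Psmb9 over Psmb6 from -6.76 and -7.99 to -4.17.

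Among the 6 regulators, Nlrc5, the transactivator of the MHC class I genes, had the largest fold change of Diff. and of mature hepatocytes over hepatoblasts. It had 0.838, 0.835, 0.647 and 0.762 CPM in hepatoblasts, 4.19, 7.92, 5.02 and 7.59 in Diff. hepatocytes, and 31.9, 58.3, 27.6 and 26.1 in mature hepatocytes. The 3 groups were separate. Diff. hepatocytes exceeded hepatoblasts by 2.99 ± 0.31 on the log2 scale (7.95-fold, adjusted p = 2.89e-06), and mature hepatocytes exceeded hepatoblasts by 5.53 ± 0.32 (46.3-fold, adjusted p = 4.5e-09). Nlrc5 (ENSMUSG00000074151) lies at chr8:94434356-94527272 on the plus strand, outside the MHC.

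Irf1 and Irf7 ran in opposite directions. Irf1 encodes an early activator that answers interferon gamma and other cytokines, and Irf7 the factor that amplifies type I interferon production. Irf1 had 106, 161, 161 and 129 CPM in hepatoblasts, 25.9, 28, 27.6 and 29.3 in Diff. hepatocytes, and 33.4, 25.6, 23.5 and 28.2 in mature hepatocytes. All hepatoblast libraries were above all others, and the other groups overlapped, with a log2 fold change between them of 0.00 ± 0.14. Irf1 was lower than in hepatoblasts by 5.03-fold both after culture (log2 fold change -2.33 ± 0.14, adjusted p = 2.48e-08) and in the adult cells (-2.33 ± 0.15, adjusted p = 8e-09). Irf7 had 4.93, 1.88, 2.01 and 2.29 CPM in hepatoblasts, 2.38, 1.72, 1.46 and 1.63 in Diff. hepatocytes, and 50.4, 83, 60.1 and 50.1 in mature hepatocytes. Irf7 was therefore higher in mature hepatocytes than in either, by 4.45 ± 0.30 over hepatoblasts (adjusted p = 1.83e-08), and Diff. hepatocytes overlapped hepatoblasts.

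Stat2 and Irf9 encode subunits of the complex bound to the ISRE, and Irf2 a factor known to restrain IRF1 at the same elements. Irf9 had 19.8, 19.7, 19.4 and 18.3 CPM in hepatoblasts, 11.5, 12, 11.4 and 10 in Diff. hepatocytes, and 41.5, 42.3, 36.1 and 33 in mature hepatocytes. The 3 groups did not overlap and Diff. hepatocytes were lowest, yet only the difference between Diff. and mature hepatocytes was large enough for a call (-1.77 ± 0.10, adjusted p = 6.29e-09). The others were -0.78 ± 0.10 for Diff. hepatocytes over hepatoblasts (adjusted p = 1.47e-05) and 0.99 ± 0.10 for mature hepatocytes over hepatoblasts (adjusted p = 7.08e-07). Irf2 had means of 13.1 ± 1.98, 24.8 ± 2.78 and 75.1 ± 14.2 CPM (SD, n = 4), and was called higher in mature hepatocytes than in each other group. Without hepatoblasts replicate 1 it was also called in Diff. hepatocytes over hepatoblasts (1.03, adjusted p = 3.97e-05, against 0.91 ± 0.15, adjusted p = 0.00012, with it). Stat2 had means of 35.9 ± 7.97, 62.6 ± 3.59 and 75.9 ± 23.6 CPM and was called only in mature hepatocytes over hepatoblasts, at 1.08 ± 0.21 (adjusted p = 0.000441), a call that ended without hepatoblasts replicate 1 (0.94) or mature hepatocytes replicate 2 (0.91) or 3 (1.00).

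All 5 RNA sensors and related enzymes were called higher in mature hepatocytes than in hepatoblasts, against 20.1% of all tested genes. With glmTreat, Ddx58 (adjusted p = 0.173), Oas1a (0.0514) and Oasl2 (0.0659) did not pass. Nor did they with library totals, where their log2 fold changes were 0.28, 1.10 and 0.98. Between Diff. hepatocytes and hepatoblasts, 0 of the 5 were called by edgeR or by DESeq2, against 28.9% of all tested genes by edgeR. At an unadjusted p below 0.05 the latter count was 1, Ifih1. Its log2 fold change of 0.81 (adjusted p = 0.000171) was under the size needed for a call. Ifih1 encodes MDA5, which binds long double-stranded RNA. It had 10.9, 7.76, 8.71 and 10.4 CPM in hepatoblasts, 15.4, 19.3, 14.3 and 17.2 in Diff. hepatocytes, and 49.3, 60.9, 56.5 and 46.4 in mature hepatocytes, in 3 separate groups. Ddx58 encodes RIG-I, which binds the ends of viral RNA, and varied less, with means of 16.6 ± 2.86, 18.9 ± 0.162 and 35.9 ± 5.21 CPM (SD, n = 4). Oasl1 encodes an OAS-like protein that limits translation of Irf7. It had 0.709, 0.835, 0.906 and 1.19 CPM in hepatoblasts, 0.346, 1.08, 0.71 and 0.788 in Diff. hepatocytes, and 20.1, 28.8, 21.9 and 16.3 in mature hepatocytes. The mature libraries were the high ones, at 4.57 ± 0.28 over hepatoblasts (23.8-fold, adjusted p = 7e-09).

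Oas1a and Oasl2, of the same family of oligoadenylate synthetases and their relatives, were low throughout. Their groups overlapped, except that Oas1a in Diff. hepatocytes (0.0888 to 0.907 CPM) lay just under mature hepatocytes (0.931 to 2.89). Oas1a was called lower in Diff. than in mature hepatocytes. This call held in 8 of the 12 fits that left out 1 library, and not with glmTreat (-2.45, adjusted p = 0.0217). Oas1a had means of 0.518 ± 0.303, 0.36 ± 0.384 and 2.02 ± 0.817 CPM (SD, n = 4), and 47.6% of its 75-base stretches also occur in Oas1g, so its level is uncertain. Oasl2 had means of 0.924 ± 0.255, 1.22 ± 0.91 and 3.27 ± 2.06 CPM. Their calls in mature hepatocytes over hepatoblasts, at 1.95 ± 0.57 (adjusted p = 0.0078) for Oas1a and 1.81 ± 0.55 (adjusted p = 0.00888) for Oasl2, held in 5 and 4 of the 12 fits that left out 1 library.

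Of the 11 antiviral effectors and regulators, 9 were called higher in mature hepatocytes than in hepatoblasts (against 20.1% of all tested genes), and Usp18 and Ifit2 were not called. Bst2 encodes tetherin, which holds budding virus at the cell surface, and was the most abundant of them in mature hepatocytes per kilobase. It had 20.3, 20.1, 21.8 and 20.8 CPM in hepatoblasts, 23.2, 23.7, 21.1 and 27.1 in Diff. hepatocytes, and 222, 213, 231 and 196 in mature hepatocytes. Mature hepatocytes stood 10.4-fold above hepatoblasts (log2 fold change 3.38 ± 0.09, adjusted p = 5.97e-12), and the other groups overlapped.

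Isg15 encodes a ubiquitin-like modifier and Usp18 the protease that removes it and also blocks the interferon alpha receptor. They did not move alike. Isg15 had 2.09, 1.37, 1.72 and 1.39 CPM in hepatoblasts, 0.907, 0.774, 0.577 and 0.838 in Diff. hepatocytes, and 9.93 to 19.7 in mature hepatocytes (mean 14.8 ± 3.99, SD, n = 4), in 3 separate groups with Diff. hepatocytes lowest. The log2 fold change was -1.08 ± 0.25 for Diff. hepatocytes over hepatoblasts (adjusted p = 0.0022), which came to -0.93 without hepatoblasts replicate 1 and to -0.96 without Diff. hepatocytes replicate 3, both out of the call, and -4.25 ± 0.25 against mature hepatocytes (adjusted p = 1.04e-08). Usp18 had 6.57, 10.1, 10.5 and 12.4 CPM in hepatoblasts, 28.3, 28.2, 29.1 and 29.6 in Diff. hepatocytes, and 12.9, 25.1, 15.3 and 8.56 in mature hepatocytes. The highest Usp18 libraries were those of Diff. hepatocytes, at 1.54 ± 0.26 over hepatoblasts (adjusted p = 0.000213) and 0.90 ± 0.26 over mature hepatocytes (adjusted p = 0.00826, not called). With glmTreat, Usp18 did not pass in Diff. hepatocytes over hepatoblasts (adjusted p = 0.0358).

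The Ifit genes encode proteins that bind foreign RNA ends and lie side by side on chromosome 19, Ifit2 at chr19:34550694-34576419, Ifit3 at chr19:34583531-34588731 and Ifit1 at chr19:34640871-34650009, all on the plus strand. Ifit1 had 1.16, 0.776, 1.65 and 1.23 CPM in hepatoblasts, 0.432, 0.473, 0.311 and 0.443 in Diff. hepatocytes, and 11.8, 23.9, 11.3 and 7.94 in mature hepatocytes. Ifit2 had 6.51, 5.67, 5.95 and 5.7 CPM in hepatoblasts, 6.01, 9.89, 6.48 and 6.65 in Diff. hepatocytes, and 3.84, 4.36, 3.62 and 1.43 in mature hepatocytes. The mature libraries were thus the highest of Ifit1 and the lowest of Ifit2. Ifit1 was at 3.51 ± 0.34 in mature hepatocytes over hepatoblasts (adjusted p = 5.74e-07), while Ifit2 was at -0.85 ± 0.27 (adjusted p = 0.0129, not called). In Diff. hepatocytes over hepatoblasts Ifit1 was at -1.52 ± 0.39 (adjusted p = 0.00419). That call held in 7 of the 12 fits that left out 1 library, and was lost without hepatoblasts replicate 1 (-1.53, adjusted p = 0.0104) or 3 (-1.34, adjusted p = 0.0142), or Diff. hepatocytes replicate 1 (-1.54, adjusted p = 0.0111), 3 (-1.40, adjusted p = 0.0156) or 4 (-1.55, adjusted p = 0.0106). In Diff. over mature hepatocytes Ifit2 was called higher at 1.13 ± 0.27 (adjusted p = 0.00257), a call lost without Diff. hepatocytes replicate 2 (0.94, adjusted p = 0.011) or without mature hepatocytes replicate 4 (0.88). Ifit3 ran with Ifit1, with means of 0.448 ± 0.24, 0.219 ± 0.193 and 8.96 ± 3.7 CPM (SD, n = 4), but 41.1% of its 75-base stretches also occur in Ifit3b.

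The stretches of these effectors are shown because the neighbours differ in letters as well as in levels. Isg15 carries 3 overlapping ISRE matches at -78 to -57, Bst2 a GAS match joined to a pair of ISRE matches at -136 to -115, Ifit1 ISRE matches at -104 to -95 and -85 to -76, and Ifit3 ISRE matches at -156 to -147 and -122 to -113. The window of Ifit2 holds no ISRE match and a GAS match at -241 to -233, which says only that the ISRE letters are not in this window. A second RefSeq start of Ifit2 has a window with none of the matches.
Isg15, chr4:156200819-156200968, minus strand: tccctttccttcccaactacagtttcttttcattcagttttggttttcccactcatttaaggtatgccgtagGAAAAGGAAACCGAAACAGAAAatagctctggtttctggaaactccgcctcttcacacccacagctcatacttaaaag
Bst2, chr8:71537473-71537622, minus strand: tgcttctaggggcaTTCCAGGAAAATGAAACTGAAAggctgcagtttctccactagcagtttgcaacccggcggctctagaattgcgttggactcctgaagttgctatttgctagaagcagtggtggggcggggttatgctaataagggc
Ifit1, chr19:34640739-34640888, plus strand: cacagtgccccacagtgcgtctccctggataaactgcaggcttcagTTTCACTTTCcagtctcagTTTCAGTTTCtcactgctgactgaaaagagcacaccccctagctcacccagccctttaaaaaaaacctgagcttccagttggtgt
Ifit3, chr19:34583329-34583528, plus strand: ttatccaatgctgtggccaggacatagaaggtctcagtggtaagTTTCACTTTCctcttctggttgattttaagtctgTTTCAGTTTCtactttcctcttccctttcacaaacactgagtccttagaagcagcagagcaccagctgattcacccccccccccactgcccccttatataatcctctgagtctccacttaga
Ifit2, chr19:34550444-34550693, plus strand: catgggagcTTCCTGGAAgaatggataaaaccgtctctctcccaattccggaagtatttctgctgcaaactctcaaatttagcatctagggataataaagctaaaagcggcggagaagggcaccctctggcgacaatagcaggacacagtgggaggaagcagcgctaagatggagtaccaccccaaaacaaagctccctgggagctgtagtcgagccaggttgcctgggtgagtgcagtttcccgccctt

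Mx1 and Mx2 encode GTPases that block virus replication, and Mx1 is known to be defective in most inbred strains. Mx1 had 0.322, 0.149, 0.0647 and 0.298 CPM in hepatoblasts and 2.06, 3.34, 1.34 and 0.993 in mature hepatocytes. In Diff. hepatocytes it had 0.259 CPM in replicate 1, or 6 counts, and 0 counts in the other 3 libraries, which at this depth allow up to 3 counts each. The difference from hepatoblasts was not called with all libraries (-1.56 ± 0.96, adjusted p = 0.176). It was called lower without Diff. hepatocytes replicate 1 (adjusted p = 0.00891), where the group is at 0 and the fitted fold change depends on the prior count. Mature hepatocytes were the high group for Mx2 as well, at 7.49 ± 2.19 CPM against 1.82 ± 0.54 in hepatoblasts and 1.4 ± 0.211 in Diff. hepatocytes (SD, n = 4). Rsad2 encodes viperin, which makes a chain-terminating nucleotide. It had 2.84, 1.04, 1 and 0.563 CPM in hepatoblasts, 1.9, 5.72, 3.68 and 2.91 in Diff. hepatocytes, and 19.7, 14.4, 12 and 5.46 in mature hepatocytes. Hepatoblasts overlapped Diff. hepatocytes through replicate 1, and the difference between them, 1.38 ± 0.50 (adjusted p = 0.029), was not called. It was called without that library (2.03, adjusted p = 0.00232) and in a fit with the replicate number as a block (1.55, adjusted p = 0.0086). The lower call of Rsad2 in Diff. than in mature hepatocytes held in 7 of the 12 fits that left out 1 library, the lost calls being those without Diff. hepatocytes replicate 1, 3 or 4 or mature hepatocytes replicate 1 or 2 (-1.87 to -1.58). Ifi35 had means of 7.52 ± 1.2, 14.3 ± 0.975 and 28.3 ± 4.29 CPM (SD, n = 4), and was called in Diff. hepatocytes over hepatoblasts without hepatoblasts replicate 1 (1.03, adjusted p = 2.51e-05) but not with it (0.93 ± 0.14, adjusted p = 6.18e-05). Xaf1, a promoter of apoptosis, had 0.675 ± 0.332, 0.63 ± 0.236 and 5.03 ± 2.97 (SD, n = 4).

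**Figure D5:**
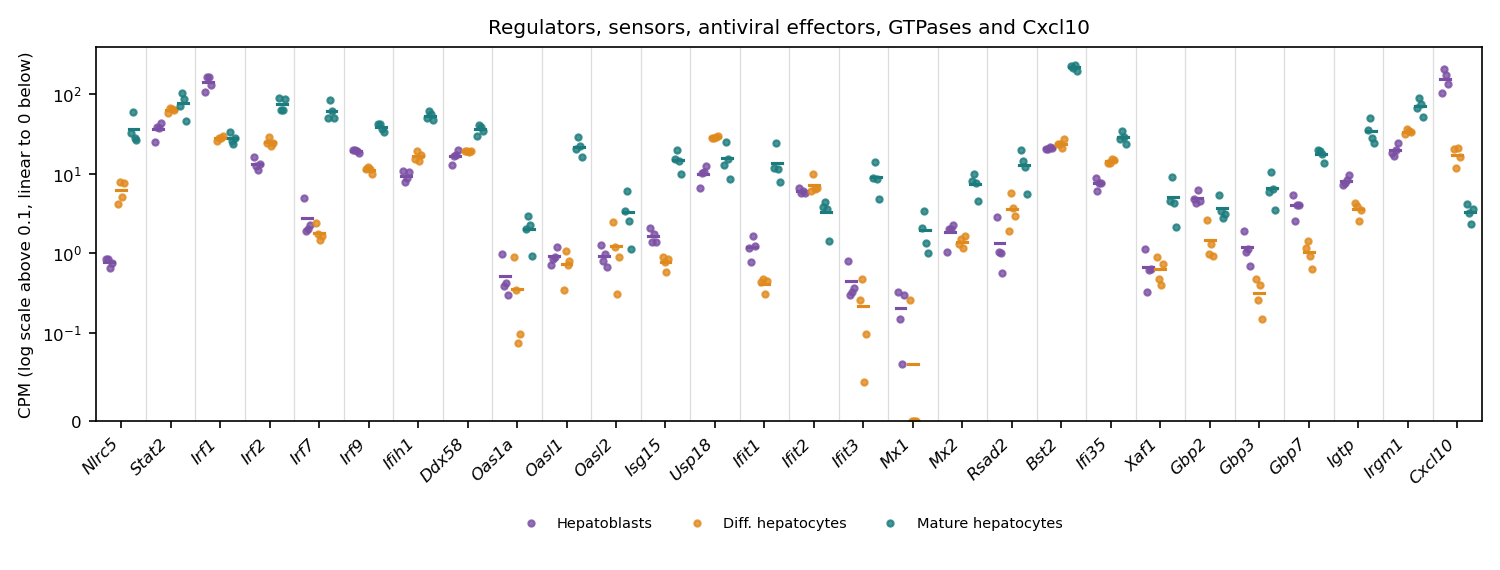
Points are single libraries, 4 per group, and lines the group means, for the 28 members outside antigen presentation, in CPM on a scale that is logarithmic above 0.1 and linear below. Mature hepatocytes are highest for most of them, as for Bst2 at 196 to 231 CPM, whereas hepatoblasts are highest for Cxcl10 at 101 to 205 and for Irf1 at 106 to 161.

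The interferon-inducible GTPases attack vacuoles that hold microbes. Of the 5, 4 were called lower in Diff. hepatocytes than in hepatoblasts (against 14% of all tested genes) and 5 lower than in mature hepatocytes (against 15.6%). With glmTreat the counts were 1, Gbp7, and 3, Gbp3, Gbp7 and Igtp. Gbp7 had 5.38, 2.51, 4.05 and 3.97 CPM in hepatoblasts, 1.17, 1.42, 0.932 and 0.641 in Diff. hepatocytes, and 19.5, 19.4, 17.5 and 13.4 in mature hepatocytes. Gbp3 had 1.9, 1.04, 1.13 and 0.696 CPM, then 0.475, 0.258, 0.4 and 0.148, then 5.89, 10.3, 6.47 and 3.47 in the same order of groups. For both, every Diff. hepatocyte library lay under every other, with log2 fold changes against hepatoblasts of -1.92 ± 0.27 (adjusted p = 3.94e-05) for Gbp7 and -1.87 ± 0.45 (adjusted p = 0.0027) for Gbp3. Gbp2 had 4.83, 4.21, 6.15 and 4.54 CPM in hepatoblasts, 2.59, 0.989, 1.29 and 0.936 in Diff. hepatocytes, and 5.34, 3.4, 2.74 and 3.1 in mature hepatocytes. Unlike its neighbours on chromosome 3, Gbp2 overlapped between hepatoblasts and mature hepatocytes (-0.44 ± 0.31, adjusted p = 0.217).

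The immunity-related GTPases Igtp and Irgm1 differed in Diff. hepatocytes. Igtp had 7.22, 7.55, 8.28 and 9.57 CPM in hepatoblasts, 4.28, 3.96, 2.53 and 3.5 in Diff. hepatocytes, and 34.8, 50, 28 and 24.2 in mature hepatocytes, with Diff. hepatocytes the low group (-1.19 ± 0.23 against hepatoblasts, adjusted p = 0.0005). Irgm1, a regulator of the other immunity-related GTPases, had 18.2, 16.7, 19.5 and 24.3 CPM in hepatoblasts, 30.9, 36.3, 34 and 32.9 in Diff. hepatocytes, and 65.6, 88.6, 75.3 and 51.6 in mature hepatocytes. Its Diff. hepatocytes lay between the other groups, at 0.77 ± 0.15 over hepatoblasts (adjusted p = 0.000767, not called). Promoters of a pair that was called lower in Diff. hepatocytes than in both other groups are shown with their ISRE letters. Gbp3 carries overlapping ISRE matches at -45 to -30, and Igtp a GAS match at -45 to -37 before an ISRE match at -34 to -25. A second RefSeq start of Gbp3 has a window without these letters.
Gbp3, chr3:142559894-142560043, plus strand: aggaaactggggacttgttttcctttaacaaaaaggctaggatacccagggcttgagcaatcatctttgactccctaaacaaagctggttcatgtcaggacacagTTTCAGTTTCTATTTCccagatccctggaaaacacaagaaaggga
Igtp, chr11:58199406-58199555, plus strand: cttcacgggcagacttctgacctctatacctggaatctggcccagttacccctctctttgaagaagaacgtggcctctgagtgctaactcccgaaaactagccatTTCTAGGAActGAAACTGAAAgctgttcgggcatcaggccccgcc

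Cxcl10, the chemokine that draws activated T cells, ran against nearly all other members. It had 101, 205, 172 and 131 CPM in hepatoblasts, 20.2, 11.7, 21.1 and 16.1 in Diff. hepatocytes, and 4.18, 3.21, 2.33 and 3.54 in mature hepatocytes. The groups did not overlap and descended in that order. Cxcl10 (ENSMUSG00000034855, chr5:92346638-92348889, minus strand) was 8.82-fold lower in Diff. hepatocytes than in hepatoblasts (log2 fold change -3.14 ± 0.24, adjusted p = 1.61e-07) and 46.1-fold lower in mature hepatocytes (-5.53 ± 0.28, adjusted p = 1.27e-09). By CPM per kilobase its rank among the 38 members was 3 in hepatoblasts, 11 after the culture and 32 in the adult cells. Cxcl10 and Irf1 were the 2 members called lower in mature hepatocytes than in hepatoblasts, and both carry a kappaB match. It lies at -103 to -94 in Cxcl10, after an ISRE match at -213 to -204, and at -13 to -4 in Irf1, after a GAS match at -90 to -82. The window of a second RefSeq start of Irf1 holds neither match.
Cxcl10, chr5:92348890-92349139, minus strand: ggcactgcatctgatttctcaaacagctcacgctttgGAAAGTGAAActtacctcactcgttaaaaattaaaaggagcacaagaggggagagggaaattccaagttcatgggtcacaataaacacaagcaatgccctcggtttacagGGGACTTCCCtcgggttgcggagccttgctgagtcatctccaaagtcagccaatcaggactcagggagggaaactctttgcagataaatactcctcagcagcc
Irf1, chr11:53769864-53770013, plus strand: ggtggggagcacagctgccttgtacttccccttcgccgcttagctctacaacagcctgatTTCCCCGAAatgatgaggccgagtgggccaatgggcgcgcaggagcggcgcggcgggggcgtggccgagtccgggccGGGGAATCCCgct

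Members with an ISRE match were compared with those without, as a description. Only exact letters within the window were searched. Members without a match, H2-K1 and H2-D1 among them, may hold an element in other letters or elsewhere. In Diff. hepatocytes against hepatoblasts, 14.9% of all tested genes were called higher and 14% lower. Of the 18 members with a match, 0 were called higher and 7 lower in this comparison. Of the 15 without a match, 2 were called higher and 2 lower. The other 3 members called higher, Tap2, Nlrc5 and Usp18, have no window and are in neither set. Without hepatoblasts replicate 1 the counts became 2 higher and 5 lower of the 18 and 4 higher and 2 lower of the 15, and with glmTreat 0 and 2 of the 18 and 2 and 1 of the 15. DESeq2 gave the same counts for the 18, and at an unadjusted p below 0.05 edgeR had 7 of them higher and 7 lower. In mature hepatocytes against hepatoblasts, 16 of the 18 were called higher, at a median log2 change of 2.29, and 11 of the 15, at a median of 2.71. Of all tested genes, 20.1% were called higher there. Of the 5 members with a kappaB match, H2-K1, H2-D1 and B2m were called higher in mature hepatocytes than in hepatoblasts, and Irf1 and Cxcl10 lower.

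Upstream of the members, 14 interferon receptor and signalling genes were tested. In mature hepatocytes against hepatoblasts, 0 were called higher and 5 lower by edgeR and by DESeq2, against 20.1% and 24.7% of all tested genes by edgeR. At an unadjusted p below 0.05, 4 were higher and 5 lower. Their median log2 fold change was -0.11, and that of all tested genes was -0.15. In Diff. hepatocytes against hepatoblasts 1 was called higher and 2 lower, against 14.9% and 14% of all tested genes. The interferon alpha receptor gene Ifnar1 had 51.4 to 66.2 CPM in hepatoblasts, 59.3 to 62.6 in Diff. hepatocytes and 54.4 to 57.8 in mature hepatocytes. Ifngr1, for interferon gamma, had 29.9 to 44.3, 59.6 to 80.5 and 14.3 to 19.9 CPM, highest in Diff. hepatocytes. Ifnlr1, for interferon lambda, had 0.451, 0.328, 0.615 and 0.563 CPM in hepatoblasts, 9.42, 7.36, 8.03 and 8.23 in Diff. hepatocytes, and at most 0.117 in mature hepatocytes. Diff. hepatocytes exceeded hepatoblasts by 4.07 on the log2 scale for Ifnlr1 (adjusted p = 1.22e-07) and were at least 43.5-fold higher than mature hepatocytes, taking 3 counts per library as the floor.

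Socs3 and Socs1, feedback inhibitors of cytokine signalling, were lower in Diff. hepatocytes than in hepatoblasts. Socs3 had 185 to 322 CPM in hepatoblasts and 6.93 to 12.3 in Diff. hepatocytes (log2 fold change -4.96, adjusted p = 5.43e-08), and Socs1 had 3.54 to 6.54 and 0.129 to 0.355 (-4.41, adjusted p = 1.11e-06). Of 21 interferon genes, which summed to at most 0.838 CPM in any library, 1 had enough counts to be tested. It was Ifnk, with 2 to 8 counts in hepatoblasts, 5 to 17 in Diff. hepatocytes and 6 to 10 in mature hepatocytes, and it was called higher than in hepatoblasts in Diff. hepatocytes (1.98 ± 0.49, adjusted p = 0.00329) and in mature hepatocytes (1.84 ± 0.51, adjusted p = 0.00531).

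Other genes of the pathway ran with the members between mature hepatocytes and the rest. Of 50 further interferon-stimulated genes tested, 29 were called higher and 0 lower in mature hepatocytes than in hepatoblasts by edgeR (31 and 0 by DESeq2, 35 and 2 at an unadjusted p below 0.05), and the median log2 fold change was 1.97. Of all tested genes, edgeR called 20.1% higher and 24.7% lower there. In Diff. hepatocytes against hepatoblasts 5 of the 50 were called higher and 7 lower, against 14.9% and 14% of all tested genes. The GTPase Iigp1 led the list, with 1.32 to 1.49 CPM in hepatoblasts, 4.44 to 5.42 in Diff. hepatocytes and 316 to 403 in mature hepatocytes (log2 fold change over hepatoblasts 8.03, adjusted p = 1.89e-13). Ifitm3, which blocks virus entry, had 14.6 to 19.5, 25.2 to 31.1 and 371 to 588 CPM. Further MHC class I genes were mixed, with 6 of 17 tested called higher and 4 lower in mature hepatocytes than in hepatoblasts. H2-Q10, the secreted class I chain of the liver, had 355 to 615, 652 to 859 and 2860 to 3322 CPM, and the lipid-presenting Cd1d1 had 2.54 to 3.67, 14 to 19.3 and 206 to 253. H2-Q4, H2-Q6 and H2-Q7 were called lower in Diff. hepatocytes than in hepatoblasts, with means of 13.2, 9.29 and 10.9 CPM against 69.7, 67.7 and 58.

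Blood and vessel cells express many of the same genes, and markers of these and other cells also differed between groups. The 11 macrophage markers summed to 100 to 423 CPM in hepatoblasts, 34.4 to 216 in Diff. hepatocytes and 180 to 333 in mature hepatocytes, and in mature hepatocytes against hepatoblasts 2 of the 11 were called higher and 1 lower. The 8 endothelial markers summed to 35.8 to 143, 11.5 to 20.8 and 123 to 220 CPM, with 4 called higher and 1 lower in mature hepatocytes than in hepatoblasts, and 6 called lower in Diff. hepatocytes than in hepatoblasts. The 11 lymphocyte, dendritic and pan-leukocyte markers summed to 3.84 to 23.8, 0.843 to 6.27 and 3.54 to 9.27 CPM, and 8 of them had 3 counts or fewer in every Diff. hepatocyte library. Of the 7 MHC class II genes, which hepatocytes do not normally express, 6 were called higher in mature hepatocytes than in hepatoblasts. Their sum was 129 CPM in mature hepatocytes replicate 1 and 32.1 to 47.1 in the other mature libraries, against 2.22 to 5.77 in hepatoblasts. The 6 granulocyte markers summed to 29.2 to 435 CPM in hepatoblasts, 6.61 to 134 in Diff. hepatocytes and 0.372 to 1.16 in mature hepatocytes. The 10 erythroid markers summed to 377 to 3065, 7.15 to 29.7 and 135 to 185 CPM, and all 10 were called lower in Diff. hepatocytes than in hepatoblasts. The 9 mesenchymal markers summed to 1093 to 1929, 1063 to 2386 and 62.1 to 93 CPM, with 7 called lower and 1 higher in mature hepatocytes than in hepatoblasts, and 3 called higher and 1 lower in Diff. hepatocytes. The 5 bile duct markers summed to 12.9 to 15, 69.9 to 213 and 15.4 to 40.6 CPM, with 3 called higher in Diff. hepatocytes than in hepatoblasts. The part of such cells in the levels of the members was not tested.

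Replicates of a group differed in the members as a set. Mature hepatocytes replicate 2 was the highest of its group for 27 of the 38 members, against 25.3% of all tested genes, and replicate 4 the lowest for 30, against 25.2%. Nlrc5 had 58.3 CPM in replicate 2 and 26.1 in replicate 4, Ifit1 had 23.9 and 7.94, and H2-T23 had 288 and 270. Macrophage markers summed to 214 CPM in replicate 2 and 180 in replicate 4, both below the 320 and 333 of the others. Hepatoblasts replicate 1, the library with the most blood cell markers, was the highest of its group for 22 members, against 34% of all tested genes. It was the lowest for 11, H2-K1, B2m and H2-T23 among them, against 42.9% of all tested genes.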

How the data were processed

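RNA of 12 libraries was compared, 4 biological replicates per group. The authors prepared strand-specific poly(A) libraries, checked the reads with FastQC 0.11.2, mapped them to GRCm38 with STAR 2.5.2b and used Picard 2.10.2. The table they deposited holds unscaled counts of reads on the genes of Ensembl, without normalization, and the setting used for strand when counting is not given in the sources used here. The study tested genes with DESeq2 1.22.2 at an adjusted p below 0.01 and a log2 fold change beyond 1.

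From these counts, genes above 10 counts in at least 1 library were kept, and edgeR 4.0.16 in R 4.3.3 was run with TMM scaling and its quasi-likelihood test, in a single fit of the 12 libraries with the group as its only term. Adjusted p-values are Benjamini-Hochberg values over all 17779 tested genes, and standard errors are those implied by the test statistic. All replicates differed by more than counting error. Positions and exons come from GENCODE M21 (GRCm38), which holds 53620 of the 53715 identifiers, and the bases before the starts from RefSeq (GRCm38.p6). Exons were compared over stretches of 75 bases to find shared sequence. Counts of 3 or fewer were taken as the floor. On simulated counts of 16505 genes, 188 of 200 changed genes were called and 0 unchanged genes. The planted changes were all well beyond a log2 fold change of 1, in genes above 1 CPM, and all libraries otherwise shared 1 mean profile. The simulation therefore does not show how calls perform near the threshold, at low levels or where many genes differ, as in these data. The alternatives were DESeq2 1.42.0, its size factors, library totals, other filters, glmTreat, an adjusted p below 0.05 without a fold change threshold, a fit of 8 libraries, a replicate block and leaving out each library.

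The members and the lists of other genes were chosen with earlier results of these data known. All members could be named, and other genes only from those lists, by size of change or as receptors, constitutive subunits and markers. A further gene of this rule is not reported here.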

Additional observations from a re-analysis of the deposited data

Results flagged for a closer look

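Among the 114 sets of 4 libraries formed by 38 members in 3 groups, 6 had a library far from the other 3 by Dixon's test, where chance gives about 5.7. Of these 6, 4 were in hepatoblasts replicate 1. Tap2 had 5.19 CPM there against 1.89 to 2.1 in the other hepatoblast libraries, Psmb8 had 3.93 against 1.29 to 1.62, Irf7 had 4.93 against 1.88 to 2.29, and Ifit3 had 0.806 against 0.298 to 0.364. The same library had the highest sums of macrophage (423 CPM), granulocyte (435 CPM) and erythroid (3065 CPM) markers of its group, and the part of those cells in the 4 levels was not tested. The antiviral gene Ifit2 had 9.89 CPM in Diff. hepatocytes replicate 2 against 6.01 to 6.65 in the other Diff. hepatocyte libraries. Mx1 had 0.259 CPM, from 6 counts, in Diff. hepatocytes replicate 1 and 0 in the others.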

How the results depend on the processing

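Of the called members, 29 of 33 in mature hepatocytes against hepatoblasts, 25 of 30 in Diff. against mature hepatocytes and 6 of 14 in Diff. hepatocytes against hepatoblasts passed under every alternative run other than the replicate block, and no called member changed direction. The 6 are H2-D1, Tapbp, Nlrc5, Irf1, Gbp7 and Cxcl10. In mature hepatocytes against hepatoblasts, the calls lost under some alternative were those of Stat2, Ddx58, Oas1a and Oasl2. With glmTreat the counts higher and lower were 3 and 3 in Diff. hepatocytes against hepatoblasts, 27 and 2 in mature hepatocytes against hepatoblasts, and 1 and 24 in Diff. against mature hepatocytes. At an adjusted p below 0.05 without a fold change threshold 13 members were higher and 10 lower in Diff. hepatocytes against hepatoblasts. Scaling by library totals moved the median log2 fold change of all genes by -0.33 in Diff. hepatocytes against hepatoblasts, by -0.85 in mature hepatocytes against hepatoblasts and by 0.53 in Diff. against mature hepatocytes, and gave members' medians of -0.28, 1.62 and -1.54 in this order. All tested genes were then called 1985 higher and 3621 lower, 2008 and 7915, and 5499 and 1776 (2648 and 2497, 3580 and 4391, and 3586 and 2776 with TMM), and the members 5 and 10, 27 and 4, and 3 and 24, the added members called lower in mature hepatocytes being Ifit2 and Gbp2. Leaving out each library gave 5 to 9 members higher (9 without hepatoblasts replicate 1, where Psmb8, Irf2, Rsad2 and Ifi35 were added) and 7 to 9 lower in Diff. hepatocytes against hepatoblasts, 28 to 32 and 2 to 3 in mature hepatocytes against hepatoblasts, and 1 to 3 and 25 to 29 in Diff. against mature hepatocytes, with 1 higher without Diff. hepatocytes replicate 2 or mature hepatocytes replicate 4. The cause of these changes was not tested.

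Replicate numbers are shared by the groups, but the descriptions do not say that a number marks a shared source, and the pairs were not all correlated. Deviations of same-numbered hepatoblast and Diff. hepatocyte libraries correlated at 0.324, -0.0589, 0.246 and 0.184, and 7 of 12 libraries correlated best with their own number. With a replicate block the counts were 6 higher and 9 lower, 31 and 2, and 2 and 28, Rsad2 being the member added. Members under 1 CPM rest on few counts. The call of Mx1 in Diff. hepatocytes against hepatoblasts turned on the 6 counts of 1 library, being absent with Diff. hepatocytes replicate 1 (adjusted p = 0.176) and present without it (adjusted p = 0.00891).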
